A study of Homo sapiens and Mus musculus with 92 samples.

Results

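The erythropoietin receptor pathway was followed through 10 genes in the RNA-seq counts of HEL cells: JAK2, STAT3, STAT5A, STAT5B, EPOR, SOCS1, SOCS2, SOCS3, CISH and PIM1. The genes were taken by symbol from the 28103 genes listed in each of 2 count tables, all 10 were found in both tables, and all 10 passed the limit for testing. HEL is an established human erythroleukemia cell line. In the MLL1 experiment, 3 libraries of control cells were set against 3 libraries of cells with knockdown (KD) of MLL1, a histone methyltransferase encoded by KMT2A. In the AF9 experiment, 2 other control libraries were set against 2 libraries of cells with KD of AF9, a subunit of the super elongation complex encoded by MLLT3. KD was by lentiviral shRNA, with shRNA #1 for each factor. The labels give the genotype of control cells as WT, and the methods of the study describe control cells transduced with a control shRNA. Transduced cells were selected with puromycin and kept as populations, since HEL cells do not form colonies from diluted cells. CUT&Tag and PRO-seq samples of the series were not analysed here.

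Erythropoietin binds its receptor, EPOR, on erythroid cells. EPOR has no kinase of its own and signals through the tyrosine kinase JAK2, which phosphorylates the transcription factors STAT5A and STAT5B. STAT5 dimers enter the nucleus and raise genes that include CISH, SOCS2 and PIM1. CISH and the SOCS proteins then bind the receptor or the kinase and shut signalling down, which makes them both a readout of the pathway and its brake. HEL cells carry an activating mutation of JAK2, so the pathway is known to be active in them without added hormone. STAT3 is the relative of STAT5 that serves receptors of the interleukin 6 family, with SOCS3 as its feedback inhibitor.

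The STAT5 binding motif was found in the promoter of one of the 10 genes. Promoters from 250 bases before to 50 bases after each start site, from RefSeq for GRCh38.p14, were searched on both strands for TTCNNNGAA, the consensus of STAT dimers, whose letters read the same on both strands. Promoters were listed for 9 of the 10 genes, SOCS2 being the exception, and 15 promoters were searched. CISH had 4 matches, which start at -241, -230, -129 and -112 from the start site and do not overlap each other, and no other gene of the 9 had one. Of all 35116 promoters of this length, 7.7% hold a match, and of the 27305 genes they belong to, 9.4% have a promoter with one. The promoter of CISH (chr3:50611725-50612024, minus strand) is shown because it is the textbook case of clustered STAT5 sites, with the matches in capitals.
CISH: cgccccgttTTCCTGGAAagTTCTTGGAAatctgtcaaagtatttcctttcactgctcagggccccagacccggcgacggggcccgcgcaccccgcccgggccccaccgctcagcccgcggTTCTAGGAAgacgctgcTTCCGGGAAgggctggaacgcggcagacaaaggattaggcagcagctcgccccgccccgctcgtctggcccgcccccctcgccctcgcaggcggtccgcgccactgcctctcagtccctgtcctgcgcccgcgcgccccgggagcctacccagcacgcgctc
A match is a stretch of letters and not a measured binding site.

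Libraries held 6966345 to 10380241 counts in the MLL1 experiment and 12278989 to 14232408 in the AF9 experiment. Levels within an experiment are given as CPM, counts scaled to library size with edgeR's TMM factors, and levels between genes as TPM, which also divides by the length of the merged exons. Of the targeted genes, KMT2A was at 63.5% of control after MLL1 KD, from 1258 to 1323 CPM down to 813 to 835 CPM (log2 fold change -0.66, edgeR adjusted p = 0.0723, and 3.49e-07 with the replicate number as a block). MLLT3 was at 18.6% of control after AF9 KD, from 528 to 548 CPM down to 92.6 to 107 CPM (log2 fold change -2.43, edgeR adjusted p = 3.24e-08). Both genes were also lower, by less than 1.5-fold, in the other experiment. KMT2A was at 80.2% of control after AF9 KD (log2 fold change -0.32, edgeR adjusted p = 0.02). MLLT3 was at 82.2% of control after MLL1 KD (log2 fold change -0.28, edgeR adjusted p = 0.615, and 0.0175 with the block). Replicate 1 of the MLL1 experiment stood apart in both groups, where its chi-square against the other libraries of its group was 30.2 to 56.6 times its degrees of freedom, while that between replicates 2 and 3 was 2.37 times in control cells and 2.66 times in MLL1 KD cells. All 7 erythroid markers were detected in both experiments. Of the megakaryocyte markers, group means were 656 to 963 TPM for ITGA2B, 180 to 550 TPM for GP9 and 104 to 137 TPM for ITGB3. PF4 was at 4.65 to 56.6 TPM and PPBP under 1 TPM. Of the markers of other blood cells, CD14, CD3D and MS4A1 had group means under 1 TPM. LYZ (34.6 to 221 TPM), CD2 (13.2 to 41.8 TPM) and CD79A (6.03 to 18.5 TPM), which mark monocytes, T cells and B cells, were detected in all groups. Fewer cells of a type and less RNA per cell cannot be told apart in these bulk libraries.

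In control cells all 10 genes of the pathway were detected, with PIM1 highest in both experiments. PIM1, a serine/threonine kinase that promotes survival, had the highest level of the 10 genes, 1205 ± 462 TPM (SD, n = 3) in the controls of the MLL1 experiment and 1380 ± 54.1 TPM (SD, n = 2) in those of the AF9 experiment. STAT5A came second in both experiments at 353 ± 47.8 TPM (SD, n = 3) and 362 ± 5.47 TPM (SD, n = 2), followed by JAK2 at 223 ± 35.0 TPM (SD, n = 3) and 265 ± 11.1 TPM (SD, n = 2). The receptor was far lower than its kinase, with EPOR at 45.9 ± 13.4 TPM (SD, n = 3) and 18.0 ± 0.838 TPM (SD, n = 2).

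In the controls of the MLL1 experiment the order went on with STAT3, STAT5B, CISH, SOCS3, EPOR, SOCS1 and SOCS2. The libraries of JAK2 and STAT3 overlapped in level, as did those of SOCS3 and EPOR and those of SOCS1 and SOCS2. Within each library SOCS3 was still above EPOR, at 44.1, 55.9 and 57.0 TPM against 30.6, 55.5 and 51.6 TPM (replicates 1 to 3). The order of JAK2 and STAT3, and that of SOCS1 and SOCS2, was reversed in replicate 1. In the controls of the AF9 experiment the order after JAK2 was STAT5B, STAT3, SOCS3, SOCS2, CISH, EPOR and SOCS1, and no neighbours overlapped between the 2 libraries. When the length of the longest transcript replaced the merged exons, PIM1 and STAT5A kept the top ranks in both experiments but STAT3 moved above JAK2, to 336 TPM against 190 TPM in the MLL1 experiment and to 250 TPM against 207 TPM in the AF9 experiment, where STAT5B overlapped with JAK2.

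**Figure D1:**
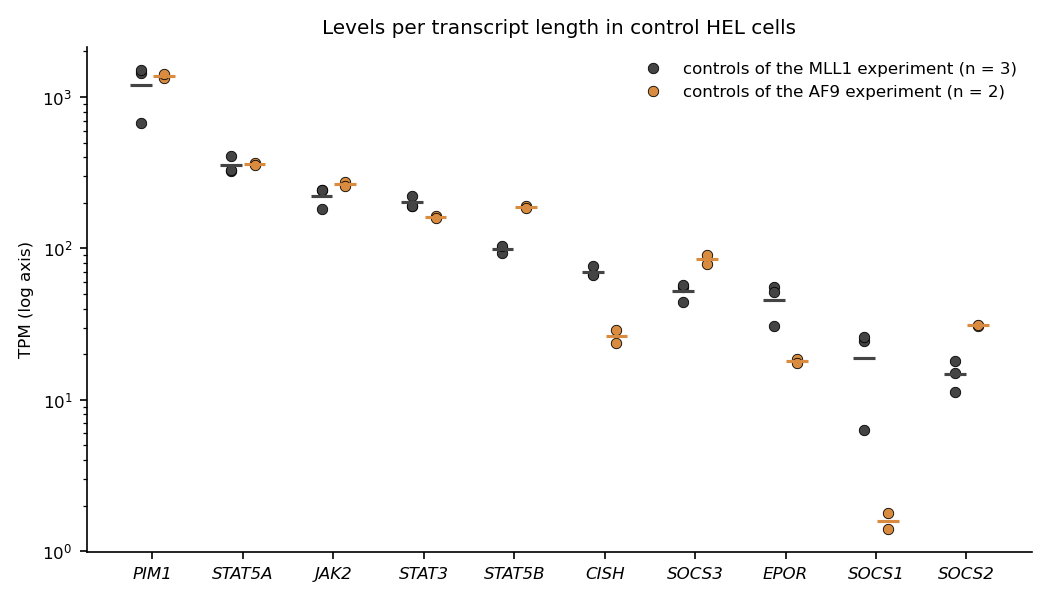
TPM of each gene (log axis) in the control libraries of the MLL1 experiment (n = 3) and of the AF9 experiment (n = 2); points are libraries and lines are means. PIM1 is highest in both, and EPOR, SOCS1 and CISH lie lower, and STAT5B, SOCS2 and SOCS3 higher, in the controls of the AF9 experiment.

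The control cells of the 2 experiments were not alike, in genes of this pathway and in others. EPOR was at 30.6, 55.5 and 51.6 TPM in the controls of the MLL1 experiment (replicates 1 to 3) and at 18.6 and 17.4 TPM in the AF9 controls (replicates 1 and 2). CISH had 67.6, 66.4 and 76.4 TPM against 23.7 and 29.0 TPM. SOCS1 had 6.34, 24.6 and 26.1 TPM against 1.39 and 1.79 TPM, which is the widest gap of the 10, a ratio of means of 0.0835. STAT5B went the other way, with 101, 94.0 and 103 TPM against 191 and 186 TPM. The control libraries of STAT5A and PIM1 overlapped between the experiments. The share of all genes without overlap was not computed, so a lack of overlap cannot be read as particular to these genes. Genes outside the pathway differed as well. Mean levels in the MLL1 and AF9 controls were 164 and 9037 TPM for the globin gene HBG1 and 159 and 62.9 TPM for KMT2A. The experiment and the time or batch of its cells cannot be told apart, so these are descriptions with no test, and KD was compared with control within each experiment only.

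**Figure D2:**
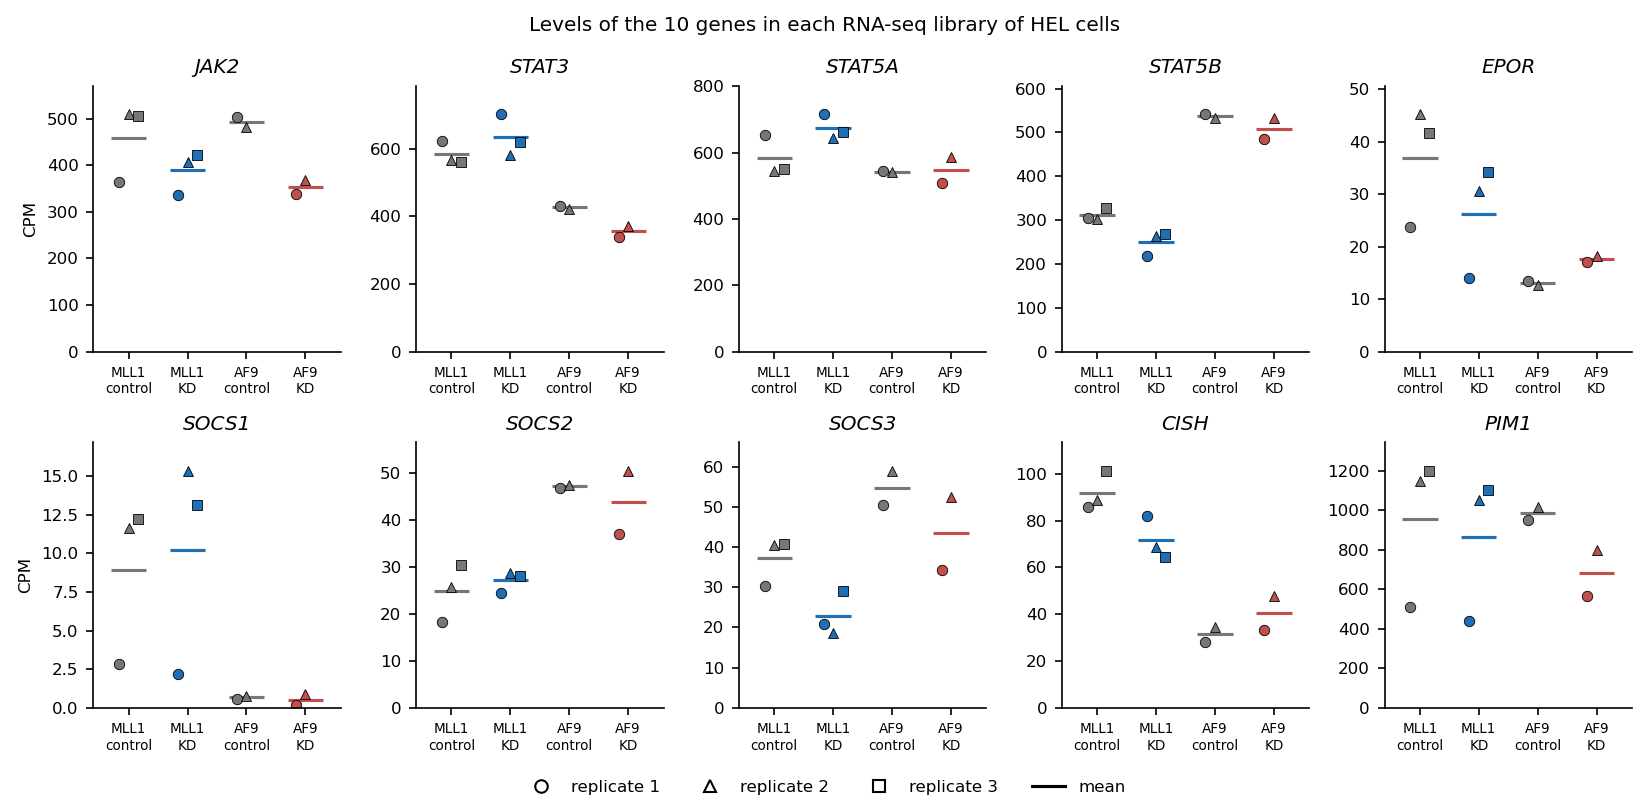
CPM of each of the 10 genes in every library, by group; symbols give the replicate number and lines the mean, and every axis starts at 0. In the MLL1 experiment replicate 1 lies lowest in both groups for JAK2, EPOR, SOCS1 and PIM1, and SOCS3, CISH and STAT5B are lower in every MLL1 KD library than in every control library.

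MLL1 KD was followed by lower SOCS3, the feedback inhibitor of the pathway with the largest change. SOCS3 was at 30.3, 40.5 and 40.8 CPM in controls and at 20.9, 18.6 and 29.0 CPM after MLL1 KD (replicates 1 to 3, the order used throughout), so the groups did not overlap. The means were 37.2 ± 5.995 CPM in controls and 22.8 ± 5.46 CPM after KD (SD, n = 3 each), 61.4% of control. The log2 fold change was -0.70 (standard error 0.22, 95% interval -1.21 to -0.19). By edgeR, adjusted for all 14393 genes tested, its adjusted p was 0.321. A gene was called at an adjusted p under 0.05 and a fold change of at least 1.5, and none of the 10 genes was called in this fit, in which 0.0625% of all genes tested were called. DESeq2 also called none of the 10, and 3 of the 10 had an unadjusted p under 0.05 with either tool, against 9.97% of all genes by edgeR and 9.45% by DESeq2.

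The replicate 1 libraries of the MLL1 experiment deviated together from their group means (correlation 0.648). Replicates 2 and 3 correlated as much when crossed (0.369 and 0.359) as by number (0.326 and 0.352), so their pairing has no support. With the replicate number as a block 4.72% of all genes were called and SOCS3 was the 1 gene of the 10 called. Its log2 fold change with the block was -0.70 (standard error 0.14, 95% interval -1.01 to -0.40, edgeR adjusted p = 0.00298). Same-numbered libraries differed by -0.53, -1.11 and -0.49 on the log2 CPM scale (MLL1 KD minus control). SOCS3 was also called with the block and GC content offsets together (log2 fold change -0.67, edgeR adjusted p = 0.00337) and, in alternatives chosen after seeing the data, from replicates 2 and 3 alone (-0.76, edgeR adjusted p = 1.3e-05) and by DESeq2 with the block (-0.70, DESeq2 adjusted p = 0.00741).

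The receptor and the kinase had smaller fold changes than SOCS3. EPOR had 23.7, 45.2 and 41.6 CPM in control cells and 14.0, 30.5 and 34.2 CPM in MLL1 KD cells. In both groups replicate 1 was lowest, and the groups overlapped, but each MLL1 KD library was below the control library of its own number, with log2 differences of -0.75, -0.56 and -0.28. EPOR had a log2 fold change of -0.49 (95% interval -1.35 to 0.36, edgeR adjusted p = 0.747) without the block and -0.52 (95% interval -0.80 to -0.24, edgeR adjusted p = 0.0144) with it, below the 1.5-fold limit in both.

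JAK2 had 363, 509 and 505 CPM in control cells and 336, 408 and 423 CPM in MLL1 KD cells. The groups overlapped through control replicate 1. The fitted log2 fold change was -0.24 (95% interval -0.62 to 0.14, edgeR adjusted p = 0.717) without the block and -0.23 (95% interval -0.37 to -0.09, edgeR adjusted p = 0.0261) with it.

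The STAT5 paralogs differed in sign, and with the block STAT5A was higher and STAT5B lower, both short of 1.5-fold. STAT5A had 654, 545 and 550.0 CPM in control cells and 715, 644 and 661 CPM in MLL1 KD cells. Its log2 fold change was 0.21 (95% interval -0.06 to 0.47, edgeR adjusted p = 0.622; with the block adjusted p = 0.0249). STAT5B had 305, 301 and 327 CPM in control cells and 218, 264 and 269 CPM in MLL1 KD cells, where every MLL1 KD library was below every control library. Its log2 fold change was -0.31 (95% interval -0.60 to -0.03, edgeR adjusted p = 0.437; with the block adjusted p = 0.00705).

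The ratio of STAT5A to STAT5B in TPM was 4.06, 3.43 and 3.19 in controls and 6.22, 4.62 and 4.66 after MLL1 KD. The ratio was higher in every MLL1 KD library than in every control library, by 0.53 on the log2 scale (p = 0.1 in an exact permutation test, two-sided, n = 3 a group, where no smaller p can be had). For AF9 KD the ratio was 1.98 and 2.09, against 1.91 and 1.92 in its controls. The genes lie next to each other on chromosome 17 of hg38, STAT5A at 42287547 to 42311943 on the plus strand and STAT5B at 42199176 to 42288633 on the minus strand, with their 5′ ends overlapping. Their coding sequences are identical at 87.0% of 2401 aligned positions, and 18.4% of the 31-base stretches of STAT5A's transcript also occur in STAT5B, so that reads from these stretches could be lost or split between them.

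STAT3 had 624, 566 and 562 CPM in control cells and 702, 582 and 622 CPM in MLL1 KD cells. The groups overlapped, and the log2 fold change was 0.12 (95% interval -0.14 to 0.39, edgeR adjusted p = 0.811).

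Among the products of STAT5, CISH had 85.7, 88.8 and 101 CPM in control cells and 82.0, 68.6 and 64.3 CPM in MLL1 KD cells. Every MLL1 KD library was below every control library, although replicate 1 was so by little. CISH had a log2 fold change of -0.36 (95% interval -0.69 to -0.03, edgeR adjusted p = 0.45) without the block and -0.36 (95% interval -0.59 to -0.14, edgeR adjusted p = 0.0289) with it. SOCS2, which limits growth hormone and STAT5 signalling, had 18.4, 25.6 and 30.5 CPM in control cells and 24.5, 28.7 and 28.1 CPM in MLL1 KD cells. These overlapped, with a log2 fold change of 0.13 (95% interval -0.37 to 0.62, edgeR adjusted p = 0.918).

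SOCS1, an inhibitor of JAK kinases that interferons induce, had 2.85, 11.6 and 12.2 CPM in control cells and 2.18, 15.3 and 13.1 CPM in MLL1 KD cells. Its interval without the block was the widest of the 10, from -1.50 to 1.86 on the log2 scale about 0.18 (edgeR adjusted p = 0.969), and with the block it was -0.33 to 0.58. PIM1 had 512, 1149 and 1199 CPM in control cells and 440.1, 1053 and 1101 CPM in MLL1 KD cells. Its log2 fold change was -0.14 with an interval of -1.09 to 0.81 (edgeR adjusted p = 0.957), and with the block -0.15 with an interval of -0.27 to -0.04 (edgeR adjusted p = 0.0729). For both genes replicate 1 lay far below the other libraries in both groups.

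Of the 10 genes, 3 (STAT5B, SOCS3 and CISH) were lower in all MLL1 KD libraries than in all control libraries, against 9.08% of all genes tested, and 0 were higher in all, against 8.64%. With the block 6 of the 10 had an adjusted p under 0.05 at any fold change (JAK2, STAT5A, STAT5B, EPOR, SOCS3 and CISH), against 13.6% of all genes tested. DESeq2 with the block left 2 of the 10 (SOCS3 and STAT5B), against 7.17% of all genes, with DESeq2 adjusted p values of 0.0536 for EPOR, 0.101 for STAT5A, 0.102 for CISH and 0.117 for JAK2. The median log2 fold change of the 10 was -0.19, beside 0.01 over all genes tested. The sum of 7 erythroid markers moved in the same comparison, from 2540 to 3310 TPM in control libraries to between 1960 and 2330 TPM in MLL1 KD libraries, as did the sum of 3 T cell markers, from between 12.6 and 17.0 TPM to between 35.2 and 46.2 TPM, nearly all of it CD2 (CD3D was at 0 in all 6 libraries). Their part in these values was not tested.

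**Figure D3:**
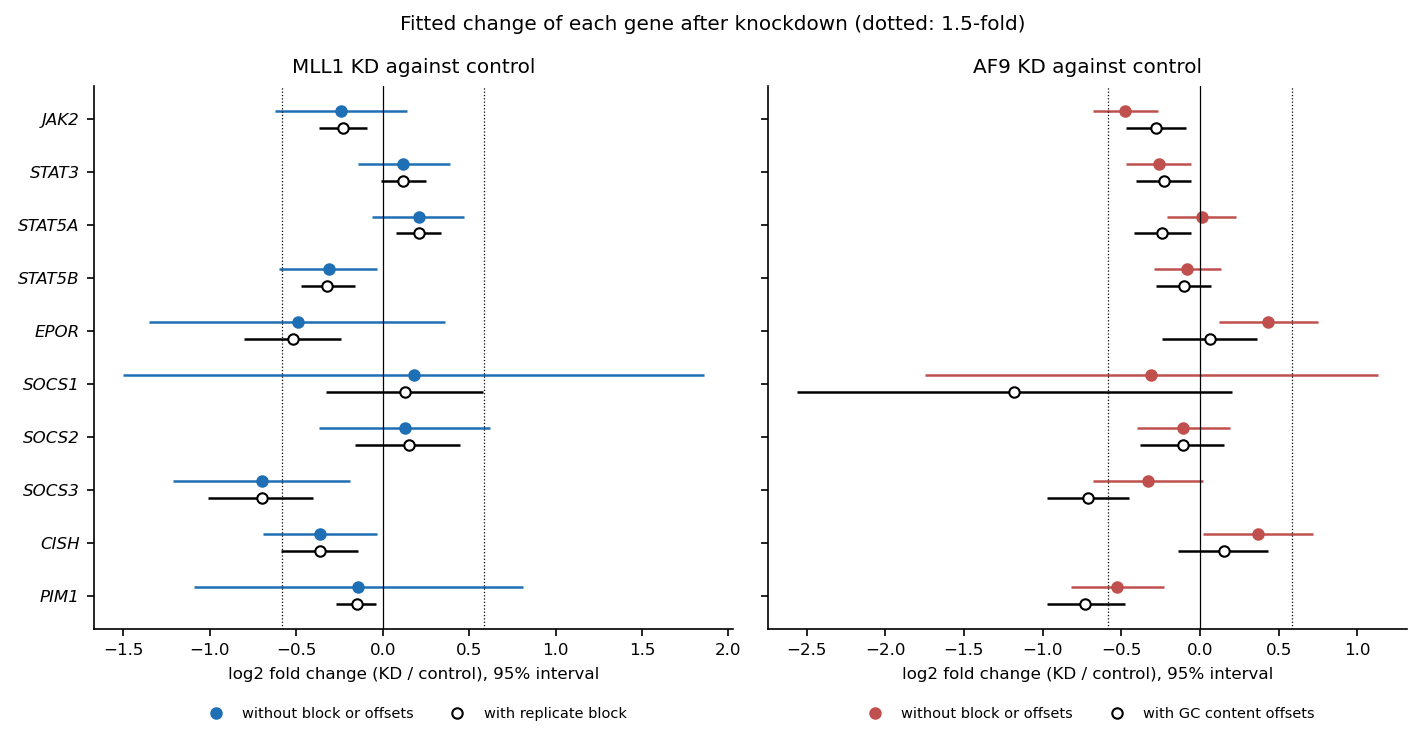
Log2 fold change of each gene with its 95% interval in the MLL1 experiment (left, without and with the replicate block) and the AF9 experiment (right, without and with GC content offsets); dotted lines mark 1.5-fold. Left, the block narrows the intervals and leaves the estimates in place, and SOCS3 lies past the line; right, the offsets move EPOR, CISH, PIM1 and SOCS3 down and JAK2 up.

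Around the 10 genes, MLL1 KD called nothing without the block. The lists held 7 other JAK kinases and STATs, 10 tested cytokine receptors, 14 inhibitors, 10 adaptors, 13 tested STAT5 target genes and 9 tested interferon-stimulated genes, with 0 called in each and median log2 fold changes of -0.09, -0.22, -0.02, -0.02, -0.07 and 0.23. With the block 1 receptor, 1 STAT5 target gene and 1 interferon-stimulated gene were called of the 63 genes tested on these lists. This is near the 4.72% of all genes called with the block. CSF2RB, the beta chain shared by the receptors of interleukin 3, interleukin 5 and GM-CSF, fell from 591 ± 20.9 to 331 ± 96.5 CPM (SD, n = 3 each; log2 fold change -0.88, edgeR adjusted p = 1.78e-05). CCND1, a D-type cyclin, fell from 16.5 ± 15.0 to 10.98 ± 10.7 CPM (SD, n = 3 each; -0.61, edgeR adjusted p = 0.0391), and it was not called with the block and GC content offsets together. OAS1, an enzyme that senses viral RNA, rose from 1.94 ± 0.367 to 6.14 ± 0.794 CPM (SD, n = 3 each; 1.66, edgeR adjusted p = 0.00184).

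After AF9 KD, 3 of the 10 genes had an adjusted p under 0.05 by edgeR, close to the share of all genes. JAK2 and PIM1 were lower and EPOR was higher, each short of 1.5-fold. JAK2 was at 503.8 and 481 CPM in controls and at 339 and 369 CPM after AF9 KD (replicates 1 and 2). The means were 492 ± 16.04 CPM in controls and 353.5 ± 21.2 CPM after KD (SD, n = 2 each), 71.8% of control, and the groups did not overlap. JAK2 had a log2 fold change of -0.48 (standard error 0.10, 95% interval -0.68 to -0.27, edgeR adjusted p = 0.00262 over all 13331 genes tested). None of the 10 genes was called at 1.5-fold in this fit, which called 13.1% of all genes tested, DESeq2 called none of the 10 either, and 5 of the 10 had an unadjusted p under 0.05 by edgeR and 4 by DESeq2, against 40.6% and 31.3% of all genes. At any fold change JAK2, PIM1 and EPOR had an adjusted p under 0.05, 3 of the 10, against 29.0% of all genes tested. With 1 library left out the direction stayed, but some adjusted p values passed 0.05 in fits that leave 1 library in a group. By edgeR JAK2 was at -0.44 (adjusted p = 0.0774) without control replicate 1 and PIM1 at -0.48 (adjusted p = 0.0574) without control replicate 2. EPOR was at 0.47 (edgeR adjusted p = 0.187) and 0.40 (edgeR adjusted p = 0.223) without control replicates 1 and 2, and at 0.39 (edgeR adjusted p = 0.0901) without AF9 KD replicate 2.

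Fold changes in the AF9 experiment moved with base composition. Over the 13041 genes with a known GC content, the fold change had a Spearman correlation of 0.48 with it (a correlation across genes, which share libraries), against -0.07 over 13983 genes in the MLL1 experiment. JAK2 has the lowest GC content of the 10, 38.2%, and EPOR (60.0%), SOCS3 (60.0%) and SOCS1 (69.1%) have the highest, where the median of the genes tested was 47.6%. With each library's trend on GC content removed by offsets, the log2 fold change of JAK2 was -0.28 (95% interval -0.47 to -0.09, edgeR adjusted p = 0.0333).

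PIM1 had 950.0 and 1017 CPM in control cells and 567 and 800.0 CPM in AF9 KD cells. Both AF9 KD libraries were below both controls but lay far from each other. PIM1 had a log2 fold change of -0.53 (95% interval -0.82 to -0.23, edgeR adjusted p = 0.0111). With GC content offsets, which called 7.97% of all genes, PIM1 was called as downregulated (-0.73, 95% interval -0.97 to -0.48, edgeR adjusted p = 0.000773). Without AF9 KD replicate 2 it was called too (-0.79, edgeR adjusted p = 2.29e-07), with the remaining AF9 KD library assumed to vary like the controls.

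EPOR had 13.4 and 12.7 CPM in control cells and 17.0 and 18.2 CPM in AF9 KD cells, from 151 to 243 counts a library. Both AF9 KD libraries were above both controls. The mean was 13.03 ± 0.486 CPM in controls and 17.6 ± 0.823 CPM after KD (SD, n = 2 each), 135% of control, with a log2 fold change of 0.43 (95% interval 0.12 to 0.75, edgeR adjusted p = 0.0415). With GC content offsets it was 0.06 (95% interval -0.24 to 0.36, edgeR adjusted p = 0.788). By DESeq2, without offsets, the log2 fold change of EPOR was 0.44 (DESeq2 adjusted p = 0.141).

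CISH had 28.0 and 34.7 CPM in control cells and 33.1 and 47.7 CPM in AF9 KD cells. The groups overlapped, with a log2 fold change of 0.37 (95% interval 0.02 to 0.72, edgeR adjusted p = 0.106) and of 0.15 (edgeR adjusted p = 0.446) with the offsets. Without AF9 KD replicate 1 CISH was called as upregulated (0.61, edgeR adjusted p = 0.00173), and without AF9 KD replicate 2 it was at 0.08 (edgeR adjusted p = 0.699).

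SOCS3 had 50.4 and 59.0 CPM in control cells and 34.3 and 52.4 CPM in AF9 KD cells, which overlapped. SOCS3 had a log2 fold change of -0.33 (95% interval -0.68 to 0.02, edgeR adjusted p = 0.141). It was called as downregulated with GC content offsets (-0.71, 95% interval -0.97 to -0.45, edgeR adjusted p = 0.00144) and without AF9 KD replicate 2 (-0.67, edgeR adjusted p = 0.000399), and it was at -0.06 (edgeR adjusted p = 0.75) without AF9 KD replicate 1. AF9 KD replicate 1 was lower than AF9 KD replicate 2 in all 10 genes, and the share of all genes with this order was not computed. The chi-square between these 2 libraries was 9.25 times its degrees of freedom, against 3.93 times between the 2 controls.

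SOCS2 had 46.8 and 47.5 CPM in control cells and 37.0 and 50.5 CPM in AF9 KD cells, with a log2 fold change of -0.11 (95% interval -0.40 to 0.19, edgeR adjusted p = 0.591). SOCS1 had 8 and 9 counts in the control libraries and 2 and 12 counts in the AF9 KD libraries. A difference in SOCS1 was not detectable at this depth, with an interval of -1.75 to 1.13 on the log2 scale.

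STAT3 had 431 and 423 CPM in control cells and 340.1 and 372 CPM in AF9 KD cells. Both AF9 KD libraries were lower, with a log2 fold change of -0.26 (95% interval -0.47 to -0.06, edgeR adjusted p = 0.053). With GC content offsets the log2 fold change of STAT3 was -0.23 (edgeR adjusted p = 0.0459). STAT5A had 545 and 541 CPM against 508 and 586 CPM, with a log2 fold change of 0.01 (95% interval -0.21 to 0.23, edgeR adjusted p = 0.953), and -0.24 with GC content offsets (edgeR adjusted p = 0.0498). STAT5B had 541 and 534 CPM against 486 and 532 CPM, with a log2 fold change of -0.08 (95% interval -0.29 to 0.13, edgeR adjusted p = 0.577) and 0.01 when libraries were scaled by total counts alone.

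Of the 10 genes, 4 (JAK2, STAT3, STAT5B and PIM1) were lower in CPM in both AF9 KD libraries than in both control libraries, against 33.2% of all genes tested, and 1 (EPOR) was higher in both, against 32.8%. STAT5B was lower by little, with AF9 KD replicate 2 at 532.3 CPM and control replicate 2 at 533.7 CPM. In TPM the groups overlapped for STAT5B, at 191 and 186 TPM in controls and 182 and 203 TPM after AF9 KD. No exact permutation test of 2 against 2 libraries, or of 3 against 3, can give a two-sided p under 0.05. The median log2 fold change of the 10 was -0.19, beside 0.01 over all genes tested. The sum of the 7 erythroid markers was 35200 TPM in both control libraries and between 23700 and 28100 TPM in AF9 KD libraries, most of it from the fetal globin genes HBG1 and HBG2, near-identical copies between which reads may be split uncertainly, and its part in these values was not tested. Of the other 5 markers 4 had log2 fold changes above 0, and the median log2 fold change of the 7 was 0.27, with ALAS2 (0.58, edgeR adjusted p = 0.000605) and TFRC (0.58, edgeR adjusted p = 0.00944) higher after AF9 KD.

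Around the 10 genes, AF9 KD called 10 of the 61 genes tested on the same lists, 16.4%, which is near the 13.1% of all genes called in this fit. Among 7 other JAK kinases and STATs, 2 fell and 0 rose. One of them was STAT4, which acts downstream of interleukin 12 and fell from 3.22 ± 0.550 to 1.598 ± 0.0700 CPM (SD, n = 2 each; log2 fold change -1.0, edgeR adjusted p = 0.0303), but was not called with GC content offsets. Of 10 tested cytokine receptors 2 fell and 0 rose. IL2RG, the gamma chain common to receptors of the interleukin 2 family, fell from 196 ± 4.67 to 99.99 ± 8.03 CPM (SD, n = 2 each; -0.97, edgeR adjusted p = 2.75e-05), and IFNGR1, a chain of the interferon gamma receptor, from 62.5 ± 1.88 to 40.9 ± 3.55 CPM (SD, n = 2 each; -0.61, edgeR adjusted p = 0.00134). IFNGR1 was not called with the offsets.

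Of 12 tested STAT5 target genes 4 fell and 1 rose. CCND2, a D-type cyclin, fell from 217 ± 3.39 to 127 ± 10.6 CPM (SD, n = 2 each; -0.77, edgeR adjusted p = 0.000128). BCL2, which blocks apoptosis, fell with a log2 fold change of -0.65 (edgeR adjusted p = 0.00581), PIM3, a kinase related to PIM1, with one of -0.65 (edgeR adjusted p = 0.00856), and ERFE, the hormone erythroferrone, with one of -0.62 (edgeR adjusted p = 0.0164). ERFE was named after its value was seen. ID1, an inhibitor of helix-loop-helix transcription factors, rose from 8.16 ± 2.71 to 13.8 ± 3.29 CPM (SD, n = 2 each; 0.77, edgeR adjusted p = 0.0236). With GC content offsets CCND2, PIM3 and ERFE were called and BCL2 and ID1 were not. Of 10 adaptors 1 fell, GAB2 (-0.60, edgeR adjusted p = 0.00128), and of 14 inhibitors and 8 tested interferon-stimulated genes 0 were called. The medians of these lists lay between -0.29 (adaptors) and -0.03 (STAT5 target genes).

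Whether the 10 genes responded differently to the 2 knockdowns was tested as a difference of fold changes in 1 fit over the 10 libraries, which share no controls. None of the 10 differed in this fit, in which 0.818% of all 14431 genes tested did, and 2 of the 10 had an unadjusted p under 0.05 by edgeR and by DESeq2, against 15.8% and 16.2% of all genes. EPOR, which was lower in each MLL1 KD library than in its numbered control and higher in both AF9 KD libraries, had a difference (AF9 KD minus MLL1 KD) of 0.92 on the log2 scale (95% interval -0.21 to 2.04, edgeR adjusted p = 0.432). CISH had one of 0.72 (95% interval 0.14 to 1.30, edgeR adjusted p = 0.217).

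With the replicate number as a block, 13.5% of all genes differed, and EPOR (0.94, 95% interval 0.52 to 1.36, edgeR adjusted p = 0.00241) and CISH (0.71, 95% interval 0.35 to 1.06, edgeR adjusted p = 0.00601) were the 2 of the 10 that did. Both were called as well with the block in the MLL1 experiment alone (EPOR 0.94, edgeR adjusted p = 0.00282; CISH 0.72, edgeR adjusted p = 0.0202). With the block and GC content offsets together, neither was called (EPOR 0.56, edgeR adjusted p = 0.07; CISH 0.46, edgeR adjusted p = 0.0885) and PIM1 was (-0.63, edgeR adjusted p = 0.000768). The last 2 fits were chosen after seeing the data. SOCS3, which was called in MLL1 KD with the block, differed between the knockdowns by 0.33 (95% interval -0.07 to 0.74, edgeR adjusted p = 0.255) with the block, where STAT3 (-0.39, edgeR adjusted p = 0.01) and PIM1 (-0.40, edgeR adjusted p = 0.0126) had adjusted p values under 0.05 short of 1.5-fold.

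Replicate 1 of the MLL1 experiment differed from the other replicates in PIM1, EPOR and SOCS1 by more than either knockdown differed from its control in the fits above. A comparison of replicate 1 with replicates 2 and 3 over both groups, with the KD as a covariate, was added after the values were seen. PIM1, EPOR and SOCS1 were called as lower in replicate 1, 3 of the 10, where 12.3% of all genes were called as lower and 9.16% as higher. SOCS1 had 22 counts in replicate 1 of either group and 84 to 121 counts in the other 4 libraries (log2 difference -2.39, 95% interval -2.92 to -1.86, edgeR adjusted p = 2.8e-07). PIM1 differed from the mean of replicates 2 and 3 by -1.2 on the log2 scale in control cells and by -1.29 in MLL1 KD cells, where those replicates lay 0.06 apart in each group (fitted difference -1.24, edgeR adjusted p = 1.51e-12). EPOR differed by -0.87 in control cells and -1.19 in MLL1 KD cells (fitted difference -1.03, 95% interval -1.32 to -0.75, edgeR adjusted p = 4.86e-06).

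JAK2 was lower in replicate 1 by less (fitted difference -0.39, edgeR adjusted p = 3.33e-05), and STAT3 (0.18, edgeR adjusted p = 0.0095) and STAT5A (0.19, edgeR adjusted p = 0.00632) were higher by less than 1.5-fold. CISH showed no such shift, at 0.08 (95% interval -0.13 to 0.30, edgeR adjusted p = 0.553). PIM1, EPOR and SOCS1 were called in all 10 alternatives run, which included GC content offsets, DESeq2 and each library left out. Where a library of replicate 1 was left out, replicate 1 had 1 library, which was assumed to vary like the others. The labels name no batch, and what set replicate 1 apart was not tested.

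**Figure D4:**
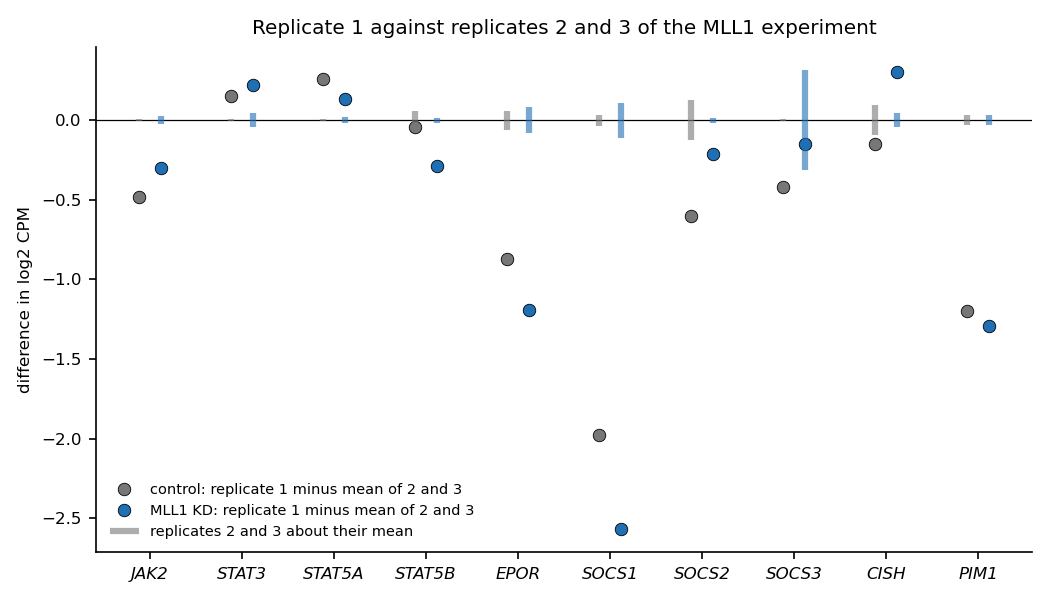
Log2 CPM of replicate 1 minus the mean of replicates 2 and 3, for each gene, in control cells (grey) and MLL1 KD cells (blue) of the MLL1 experiment; bars span replicates 2 and 3 about their mean. SOCS1 (-1.98 and -2.57), PIM1 (-1.2 and -1.29) and EPOR (-0.87 and -1.19) lie far below 0 in both groups, and CISH lies on both sides of it.

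The genes whose pattern over the 10 libraries was most like that of JAK2 were sought among the 12729 genes tested in both experiments, as log2 CPM of each library minus the mean of its own experiment's controls. Among the 3 most alike were CXorf38 (Pearson correlation 0.992) and PTBP3 (0.985), an RNA-binding protein. PTBP3 stood at -0.44, -0.10 and -0.08 in MLL1 KD replicates 1, 2 and 3 and at -0.44 and -0.35 in AF9 KD replicates 1 and 2. For EPOR the 3 most alike were C21orf58 (0.983), SLC35E2A (0.982) and GPR146 (0.982), a G protein-coupled receptor. GPR146 stood at -1.62, 0.02 and -0.18 in MLL1 KD replicates and at 0.37 and 0.75 in AF9 KD replicates. These are descriptions over libraries that share replicate 1's shift, with no test.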

How the data were processed

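Polyadenylated RNA of HEL cells was sequenced from strand-specific libraries. The authors filtered reads with fastp version 0.13.1, mapped them to hg38 with HISAT2 version 2.1.0 and counted them with featureCounts version 1.6.1, per the submitters' processing notes, and deposited unnormalized counts per gene symbol. The annotation behind the symbols is not given in the sources used here. The 10 genes and the gene lists were chosen with earlier results of these data known.

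Of 28103 symbols, 92.4% were matched to GENCODE version 44 for lengths and GC content. A mean TPM of 1 or more was required of a gene, and tests were run in each experiment with edgeR version 4.0.16 (R version 4.3.3; TMM factors from the genes tested, glmQLFit, glmQLFTest), two-sided, with Benjamini-Hochberg adjustment over all genes tested, and called at an adjusted p under 0.05 and a fold change of at least 1.5. Log2 CPM used a prior count of 2. Alternatives were DESeq2 version 1.42.0 (Wald test, its NA values kept), other scalings and filters, GC content offsets (lowess span 0.3), the replicate block and each library left out. Tested on simulated data, the fits recovered 42.0% of 200 genes changed by 2-fold in the MLL1 experiment (13540 genes), 89.0% in the AF9 experiment (12730 genes) and 12.0% for the difference (13480 genes). The simulated counts were drawn independently for each library around a common level per gene. They held no shared shift of replicate 1 and no trend with GC content, so these shares do not measure power in the real libraries.

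Replicate numbers are the labels' own. In the MLL1 experiment, libraries with the same number deviated together from their group means, with correlations of 0.648, 0.326 and 0.352, and the replicate block was used on that ground. Replicates 2 and 3 crossed gave 0.359 and 0.369, so the correlations set replicate 1 apart and do not tell replicate 2 from 3. The labels do not say whether replicates came from separate cultures, so p-values measure the spread between these libraries, which may be technical. Named beside the 10 genes were the targeted genes, the called genes of each list (at most 3 up and 3 down by size of change) and the 3 genes most correlated with JAK2 and with EPOR; some that this rule names are not reported here. The identity of STAT5A and STAT5B is of GENCODE coding sequences. Figures were drawn with matplotlib version 3.10.9.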

Additional observations from a re-analysis of the deposited data

How the results depend on the processing

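In the MLL1 experiment 0 of the 10 genes were called, and 1 (SOCS3) was called with the replicate block, with the block and GC content offsets, and, as alternatives chosen after seeing the data, from replicates 2 and 3 alone and by DESeq2 with the block. With any 1 library left out the count stayed at 0. In the AF9 experiment it was 0, and 2 with GC content offsets, alone or with the replicate block, 3 with no fold change threshold, and 0 to 2 with 1 library left out. The replicate block alone changed no call of the 10 there, where 2 same-numbered pairs correlated at 0.156. With that block STAT3, SOCS3 and CISH had edgeR adjusted p values of 0.012, 0.00256 and 0.00538, each short of 1.5-fold. The share of all genes under 0.05 at any fold change with that block was not computed. For the difference between the knockdowns 0 became 2 with the replicate block, in both experiments or in the MLL1 experiment alone, and 1 with the block and GC content offsets, and it stayed at 0 with any 1 library left out.

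Over all genes tested, the 9 genes called in the MLL1 experiment became 232 with DESeq2, 32 with no filter beyond 1 count, 679 with the replicate block, 675 with the block and GC content offsets, 696 from replicates 2 and 3 alone, 464 by DESeq2 with the block, and 0 to 53 with 1 library left out. The 1744 of the AF9 experiment became 1063 with GC content offsets, 3862 with no fold change threshold, 510 at a minimum fold change of 2, 1051 to 1997 with 1 library left out. Scaling by total counts alone moved the split there from 1069 up and 675 down to 1415 up and 438 down, and GC content offsets to 495 up and 568 down. The 118 genes whose effects differed became 1952 with the replicate block, 1925 with the block in the MLL1 experiment alone, 1191 with the block and offsets, 724 with DESeq2, 28 with GC content offsets, and 1 to 872 with 1 library left out. Scaling by total counts moved the median difference of all genes from 0.013 to 0.114 on the log2 scale.

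The log2 fold change changed sign, with no call on either side, for PIM1 in the MLL1 experiment, where leaving out 1 library gave -0.44 to 0.18, for SOCS1 (-0.25 to 0.67) and for SOCS2 (-0.05 to 0.30). In the AF9 experiment it changed sign for SOCS1 (-2.03 to 0.44), SOCS2 (-0.35 to 0.10) and STAT5A (-0.09 to 0.11) with 1 library left out, for STAT5A also with no filter beyond 1 count (-0.01) and with GC content offsets, alone or with the replicate block (-0.24), and for STAT5B with total counts only (0.01). The difference between knockdowns changed sign for SOCS3 with GC content offsets (-0.03), and with these and the replicate block (-0.05), and for SOCS1 with 1 library left out (-2.20 to 0.23). The difference of CISH in replicate 1 changed sign when 1 library was left out (-0.15 to 0.32). The causes were not tested. At 2 to 12 counts a library in the AF9 experiment, SOCS1 was counted too thinly for its direction to be read.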
